A study of Mus musculus with 10 samples.

Results

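The BCL2 family genes described here are 10 genes chosen by name: *Bcl2*, *Bcl2l1*, *Mcl1*, *Bax*, *Bak1*, *Bbc3*, *Bcl2l11*, *Pmaip1*, *Bid* and *Hrk*, out of 53974 genes in the RNA-seq table. Their values were read in all 6 RNA-seq libraries, together with the ATAC-seq regions that lay within 1000 bp of an end of one of these genes, which were 6 of 16600 regions. Retinal cells came from C57BL/6 mice aged 8 to 10 weeks that carried floxed *Arid1a* in both groups. The WT group (label genotype *Arid1a* fl/fl) received AAV2-GFP and the cKO group (label genotype *Arid1a* del/del) received AAV2-Cre into the vitreous, 2 weeks before optic nerve crush (ONC). Cells were taken 3 days after ONC and sorted as Thy1.2-positive and DAPI-negative, and several retinas were pooled for a sample. The viral genes were driven by the CMV promoter, which is not restricted to retinal ganglion cells (RGCs), and no uninjured group was sequenced. There were 3 RNA-seq and 2 ATAC-seq libraries in each group.

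The BCL2 family controls the intrinsic, or mitochondrial, pathway of apoptosis. The anti-apoptotic members *Bcl2*, *Bcl2l1* (BCL-XL) and *Mcl1* bind and restrain the effectors *Bax* and *Bak1*, which open pores in the outer mitochondrial membrane and release cytochrome c. The BH3-only members *Bbc3* (PUMA), *Bcl2l11* (BIM), *Pmaip1* (NOXA), *Bid* and *Hrk* sense stress and either block the anti-apoptotic members or activate the effectors. In RGCs the death that follows axon injury is known to depend on *Bax*.

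RGC-specific genes were low in the sorted cells, whereas *Thy1* and *Isl1*, which RGCs share with other cells, were well detected. *Rbpms* was at 1.82 to 6.43 TPM over the 6 libraries, *Pou4f1* was at 0.084 to 3.60 TPM and *Pou4f2* was listed at 0 in 5 of 6 libraries. *Thy1*, whose product was used for the sort and is also made by T cells, was at 51.9 to 129 TPM, and *Isl1*, also known from bipolar and amacrine cells, was at 51.9 to 104 TPM, both named after their values were seen. The rest of the 12 RGC genes examined lay lower, such as *Nefl* at 5.47 to 20.6 TPM, *Tubb3* at 3.45 to 12.0 TPM and *Slc17a6* at 0.593 to 1.57 TPM. TPM is transcript abundance corrected for transcript length and scaled to a fixed sum per library, so it can be compared between genes but keeps no sequencing depth, and no counting error can be given. RNA of the targeted gene *Arid1a* was 18.8, 11.7 and 14.1 TPM in WT replicates 1, 2 and 3, and 18.8, 27.9 and 25.0 TPM in cKO replicates 1, 2 and 3. It was thus not lower in the libraries labelled cKO (log2 fold change 0.66 ± 0.28 SE, adjusted p = 0.274 from limma), and all directions are given by label. In ATAC-seq, 13.6% of the peaks of WT replicate 1 and 24.4% of those of WT replicate 2 overlapped a peak of the other WT library by at least 1 bp, against 3.39% and 2.77% between the cKO libraries.

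The promoters of 4 members are printed because they bear on the accessibility values given further on: *Bcl2*, with the clearest RNA difference, *Bcl2l11*, with the largest difference in accessibility, *Bax*, the effector known from injured RGCs, and *Bak1*, where no accessible region was listed. Each is the 250 bases before the RefSeq start in GRCm38.p6, written 5′ to 3′ in the direction of the gene. Capitals mark the 6 motifs that were searched on both strands: GGGCGG (the GC box of SP and KLF factors), TGANTCA (AP-1), TGACG (the CRE half-site), CACGTG (the E-box), GTAAACA (forkhead factors) and CCAAT. None of these motifs contains another.
Bcl2, chr1:106714291-106714540, minus strand: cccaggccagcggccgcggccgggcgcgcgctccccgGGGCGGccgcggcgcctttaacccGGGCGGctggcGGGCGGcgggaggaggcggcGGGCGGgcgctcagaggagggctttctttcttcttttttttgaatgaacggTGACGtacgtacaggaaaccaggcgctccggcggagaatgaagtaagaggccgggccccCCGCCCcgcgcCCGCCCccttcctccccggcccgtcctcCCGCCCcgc
Bcl2l11, chr2:128125788-128126037, plus strand: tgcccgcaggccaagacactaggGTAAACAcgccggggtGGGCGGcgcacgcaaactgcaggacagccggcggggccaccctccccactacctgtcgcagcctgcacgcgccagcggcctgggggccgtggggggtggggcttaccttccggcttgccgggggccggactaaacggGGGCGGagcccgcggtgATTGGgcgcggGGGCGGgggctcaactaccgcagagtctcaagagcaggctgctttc
Bax, chr7:45466899-45467148, minus strand: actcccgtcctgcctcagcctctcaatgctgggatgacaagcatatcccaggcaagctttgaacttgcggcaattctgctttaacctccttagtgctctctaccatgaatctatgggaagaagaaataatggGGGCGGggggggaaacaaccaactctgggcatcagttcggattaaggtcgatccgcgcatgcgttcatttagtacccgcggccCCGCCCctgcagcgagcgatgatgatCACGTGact
Bak1, chr17:27028628-27028877, minus strand: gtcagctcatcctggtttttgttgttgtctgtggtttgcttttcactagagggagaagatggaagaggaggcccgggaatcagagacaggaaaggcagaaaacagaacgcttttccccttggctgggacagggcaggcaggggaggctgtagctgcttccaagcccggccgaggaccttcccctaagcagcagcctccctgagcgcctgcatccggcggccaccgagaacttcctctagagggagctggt
The *Bcl2* sequence held 7 GC boxes and 1 CRE half-site, and the *Bcl2l11* sequence held 3 GC boxes, 1 forkhead motif and 1 CCAAT box. In the *Bax* sequence there were 2 GC boxes and 1 E-box, and in the *Bak1* sequence none of the 6 motifs was found. Over windows of 300 bases (250 before and 50 after each start), 9 of the 10 members had 14 entries in the RefSeq promoter table, and *Pmaip1* had none. A GC box was found in 10 of these 14 windows, against 35.7% of 32851 promoters, and a CRE half-site in 4 of 14, against 20.8%. The E-box was found in 2 of 14 windows (7.15% of all promoters), the forkhead motif in 2 (3.65%), CCAAT in 3 (37.4%) and the AP-1 motif in 0 (7.81%). Windows of 1 gene overlap or lie close together, so they are not independent, and a match describes letters only.

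*Bcl2l1* was the most abundant member and *Bax* the next in all 6 libraries, and *Hrk* was the least abundant in all 6. *Bcl2l1* alone made up 43.3%, 46.2% and 65.4% of the summed TPM of the 10 members in WT replicates 1, 2 and 3, and 59.9%, 59.4% and 78.6% in cKO replicates 1, 2 and 3. The replicate 3 libraries of both groups held the highest shares. By mean TPM the WT order was *Bcl2l1*, *Bax*, *Pmaip1*, *Mcl1*, *Bak1*, *Bid*, *Bcl2l11*, *Bcl2*, *Bbc3* and *Hrk*. Of these neighbours, the ranges of the 3 libraries were apart only between *Bax* and *Pmaip1* and between *Bbc3* and *Hrk*. In cKO the order was *Bcl2l1*, *Bax*, *Mcl1*, *Bid*, *Bcl2l11*, *Pmaip1*, *Bak1*, *Bcl2*, *Bbc3* and *Hrk*, with ranges apart between *Bcl2l1* and *Bax*, *Bax* and *Mcl1*, *Bcl2* and *Bbc3*, and *Bbc3* and *Hrk*. In single libraries *Pmaip1* held ranks 3, 9 and 3 in WT replicates 1, 2 and 3 and ranks 5, 7 and 6 in cKO replicates 1, 2 and 3.

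**Figure D1:**
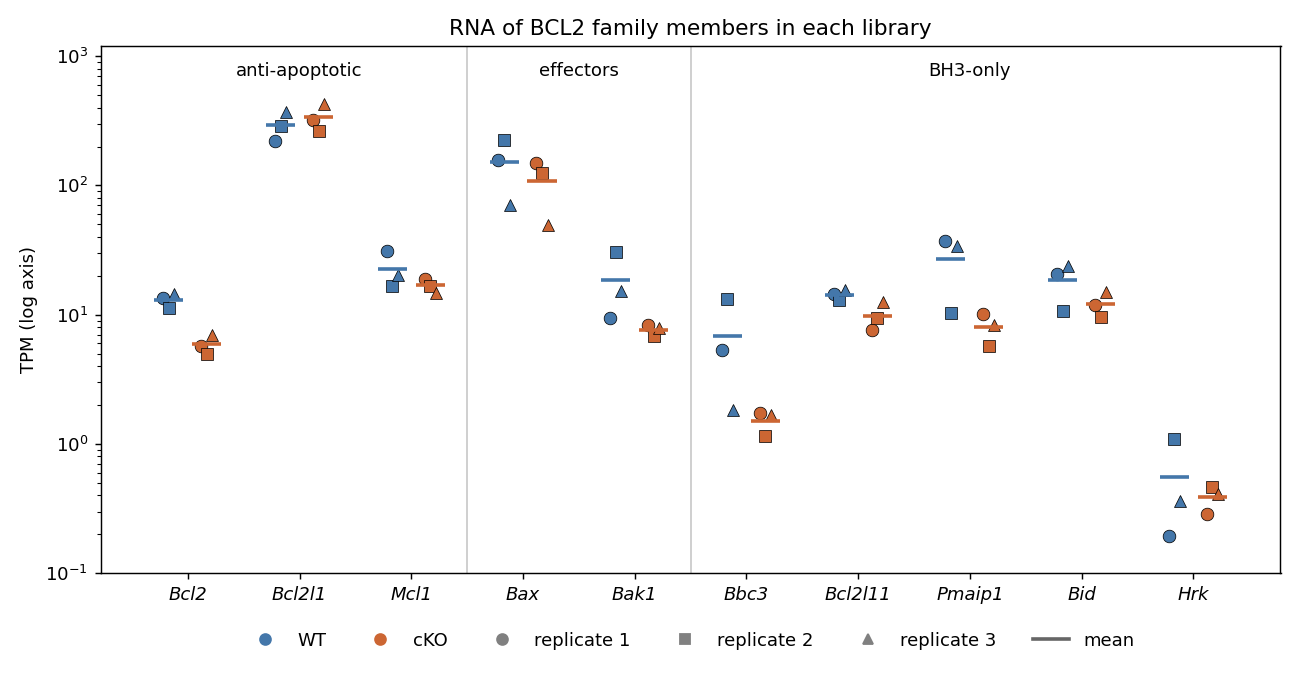
RNA of the 10 members in each library, as TPM on a log axis, with WT in blue and cKO in orange, a symbol for each replicate and a bar for the mean of 3 libraries. *Bcl2l1* and *Bax* lie above the other members in every library, and the cKO points of *Bcl2*, *Bak1*, *Bbc3*, *Bcl2l11* and *Pmaip1* lie below all WT points.

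The comparison of cKO with WT asked whether RNA of these apoptosis regulators differed after *Arid1a* deletion. Of the 10 members, 9 reached 1 TPM in 3 or more libraries and were tested among 17555 genes. *Hrk* did not reach it. Log2(TPM + 1) was lower in cKO for 8 of the 9 and higher for *Bcl2l1*, and negative fold changes were seen for 38.9% of all genes tested. No member passed an adjusted p of 0.05 in limma, where 0% of all genes tested were called lower and 0.0057%, or 1 gene, higher. At an unadjusted p under 0.05, 4 members were lower in cKO (*Bcl2*, *Bak1*, *Bbc3* and *Pmaip1*), against 6.45% of all genes tested, and 0 were higher, against 11.9%. In 5 members every cKO library lay below every WT library, against 7.18% of all genes tested, and in 0 members every cKO library lay above, against 18.7%. In 7 members the cKO library was below the WT library of the same replicate number in all 3 pairs, against 15.8% of all genes. The median log2 fold change of the 9 members was -0.52, beside 0.16 over all genes tested. Scaling the libraries by the median of ratios moved the 2 medians to -0.67 and 0.01, and no member changed direction. Fold changes on this scale understate those of genes with a low TPM. In these sorted mixtures, fewer cells of a type and less RNA per cell cannot be told apart.

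Among the anti-apoptotic members, *Bcl2* stood out. It was at 13.4, 11.2 and 14.6 TPM in WT and at 5.73, 4.95 and 7.02 TPM in cKO, or 13.1 ± 1.69 against 5.90 ± 1.04 (SD, n = 3 each). The groups did not overlap, the spread within each was small, and the log2 fold change was -1.03 ± 0.26 (SE), with an adjusted p of 0.139 and an unadjusted p of 0.00564 in limma. *Bcl2* was the only member with an unadjusted p under 0.05 whichever library was left out, and its log2 fold change then ran from -1.15 to -0.93. *Bcl2l1*, which encodes BCL-XL, was at 221, 286 and 372 TPM in WT and at 320, 262 and 427 TPM in cKO. The groups overlapped, and its log2 fold change of 0.20 had a 95% interval of -0.47 to 0.87 (adjusted p = 0.733, limma). *Mcl1*, a short-lived survival protein, was at 31.1, 16.5 and 20.3 TPM in WT and at 19.0, 16.8 and 14.7 TPM in cKO. WT replicate 1 was its highest library and the other libraries overlapped (log2 fold change -0.37, 95% interval -1.06 to 0.33, adjusted p = 0.542, limma). *Bcl2l1* RNA was 16.5, 25.4 and 25.5 times that of *Bcl2* in WT, and 55.8, 53.0 and 60.9 times in cKO, without overlap.

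The 2 effectors differed in level and in spread. *Bax* was at 158, 227 and 71.1 TPM in WT and at 150, 124 and 49.0 TPM in cKO. The groups overlapped, and replicate 3 was the lowest library of each. The log2 fold change of *Bax* was -0.49, with a 95% interval of -1.79 to 0.81 and an adjusted p of 0.667 in limma. Within the same-numbered pairs the log2 differences of *Bax* were -0.08, -0.86 and -0.53, and a fit with replicate as a block gave it an unadjusted p of 0.0856 and an adjusted p of 0.285. Without cKO replicate 3 the unblocked log2 fold change was -0.0028, and without WT replicate 3 it was -0.96. *Bak1*, which acts in parallel to *Bax* at the mitochondrial membrane, was at 9.43, 30.6 and 15.2 TPM in WT and at 8.28, 6.87 and 7.88 TPM in cKO. All cKO libraries lay below all WT libraries, although WT replicate 1 was close to the highest cKO library. Its log2 fold change was -1.01 ± 0.42 (SE; adjusted p = 0.262, limma) and -0.59 without WT replicate 2, the highest library, with an unadjusted p of 0.0979. *Bax* RNA was 4.68 to 16.8 times that of *Bak1* in WT and 6.22 to 18.1 times in cKO.

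The BH3-only members were below *Bcl2l1* and *Bax* in all 6 libraries, though by mean TPM *Pmaip1* lay above *Bak1* and *Bcl2* in both groups. *Pmaip1*, whose product NOXA binds MCL1, was at 37.1, 10.2 and 33.9 TPM in WT and at 10.1, 5.75 and 8.32 TPM in cKO. WT replicates 1 and 3 were far above the other libraries, and WT replicate 2 was close to the highest cKO value. Its log2 fold change of -1.47 ± 0.50 (SE) was the largest in size among the members (unadjusted p = 0.0221, adjusted p = 0.199, limma). With the replicate number as a block the adjusted p of *Pmaip1* was 0.0938, and without WT replicate 2 its log2 fold change was -2.04 (adjusted p = 0.0797). It was -1.16 without WT replicate 1, -1.22 without WT replicate 3 and -1.28 without cKO replicate 2, with unadjusted p of 0.0794, 0.0741 and 0.0697 (limma). The adjusted p of *Pmaip1* ran from 0.0797 to 0.535 over all alternatives. *Bbc3*, a p53 target whose product PUMA binds all anti-apoptotic members, was at 5.35, 13.3 and 1.84 TPM in WT and at 1.73, 1.16 and 1.66 TPM in cKO. The WT libraries of *Bbc3* spread widely, with replicate 3 only just above the highest cKO library, and the 95% interval of its log2 fold change of -1.35 ran from -2.69 to -0.00 (adjusted p = 0.271, limma). Without WT replicate 2 the log2 fold change of *Bbc3* was -0.76, and without WT replicate 3 it was -1.93.

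*Bcl2l11*, whose product BIM activates the effectors, was at 14.4, 12.9 and 15.5 TPM in WT and at 7.62, 9.41 and 12.4 TPM in cKO. The groups did not overlap, and the log2 fold change was -0.52 ± 0.27 (SE; unadjusted p = 0.0966, adjusted p = 0.349, limma). Scaled by the median of ratios, *Bcl2l11* had an unadjusted p of 0.0421 and a log2 fold change of -0.67. *Bid*, which is cleaved by caspase-8 and links death receptors to mitochondria, was at 20.7, 10.6 and 23.9 TPM in WT and at 11.9, 9.51 and 15.0 TPM in cKO. WT replicate 2 lay among the cKO libraries, and the log2 fold change of *Bid* was -0.51 with a 95% interval of -1.36 to 0.34 (adjusted p = 0.488, limma). Without WT replicate 2 it was -0.85 (unadjusted p = 0.024, adjusted p = 0.187, limma) and without WT replicate 3 it was -0.29, and the adjusted p of *Bid* over the fits that left out 1 library ran from 0.187 to 0.805. *Hrk*, a BH3-only gene known from neurons, was at 0.193, 1.10 and 0.364 TPM in WT and at 0.286, 0.468 and 0.410 TPM in cKO, so that the groups overlapped near the lower end of the measured range. For each of the 5 members whose groups did not overlap, the exact two-sided permutation test gave p = 0.1, the smallest value that 3 against 3 libraries allow.

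**Figure D2:**
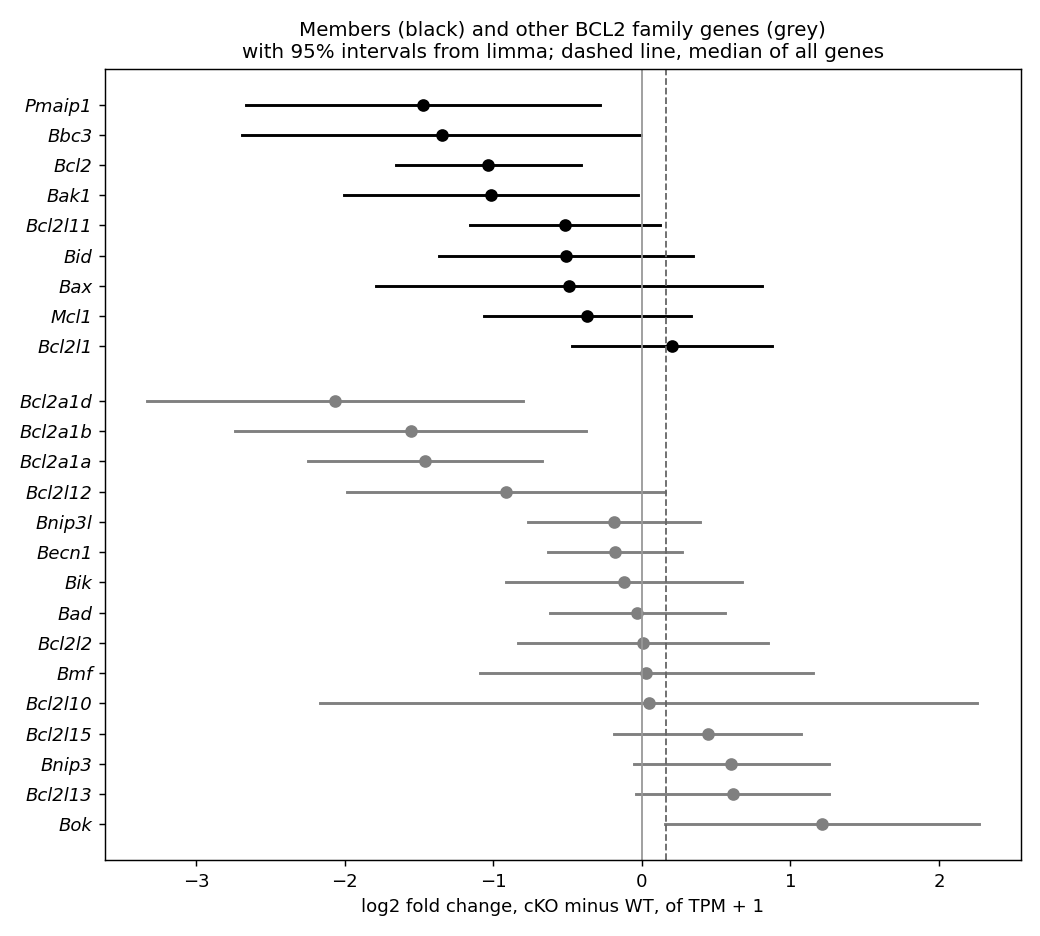
Log2 fold change (cKO minus WT) of log2(TPM + 1) for the 9 tested members in black and 15 other BCL2 family genes in grey, with 95% intervals from limma, a solid line at 0 and a dashed line at the median of all genes tested, 0.16. Among the members, all but *Bcl2l1* lie left of 0, and the intervals of *Pmaip1*, *Bbc3*, *Bcl2* and *Bak1* lie below 0, with that of *Bbc3* ending at -0.00.

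Ratios of summed TPM within a library do not depend on scaling between libraries. The summed TPM of *Bcl2*, *Bcl2l1* and *Mcl1* was 3.41, 6.52 and 5.39 times that of the 5 BH3-only members in WT replicates 1, 2 and 3, and 10.9, 10.8 and 11.8 times in cKO replicates 1, 2 and 3. The groups did not overlap, and the mean log2 ratio differed by 1.18. Because sums are led by *Bcl2l1*, the ratio was also formed from geometric means of TPM + 1, which do depend on scaling through the added 1. The difference in this form was 0.395 on the log2 scale. There too every cKO library (6.34 to 6.58) was above every WT library (4.46 to 5.60). The summed anti-apoptotic TPM was 1.58, 1.22 and 4.71 times that of *Bax* and *Bak1* in WT, and 2.18, 2.16 and 7.89 times in cKO. Replicate 3 was the highest of each group, the groups overlapped, and the mean log2 ratio differed by 0.68, with differences of 0.46, 0.83 and 0.74 within the same-numbered pairs. Leaving out 1 library, which breaks a pair, gave 0.058 without cKO replicate 3 and 1.26 without WT replicate 3. No test was run on the ratios, which are scores over chosen members, and RNA ratios do not give protein ratios.

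**Figure D3:**
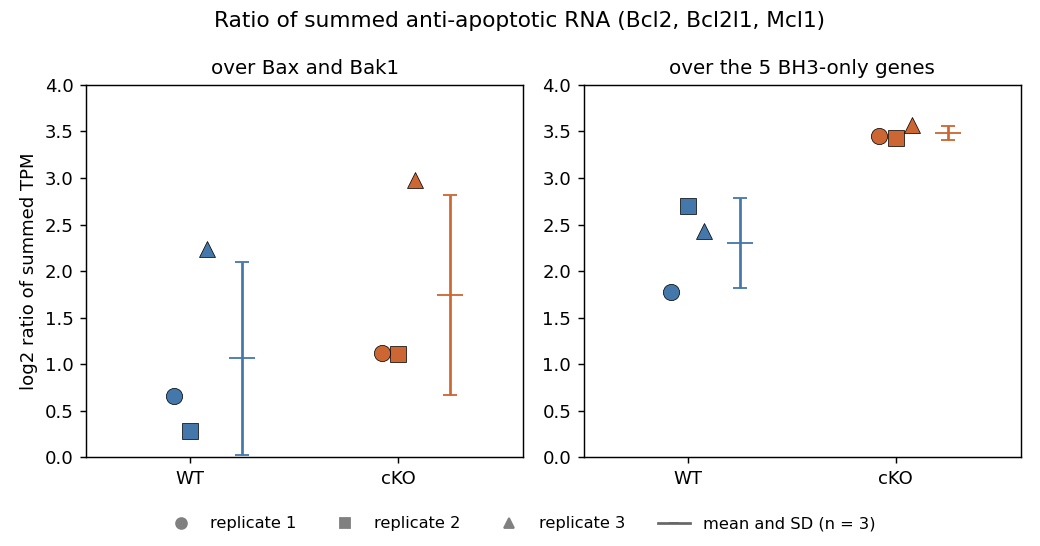
Log2 ratio of summed *Bcl2*, *Bcl2l1* and *Mcl1* TPM over *Bax* and *Bak1* (left) and over the 5 BH3-only members (right), with a symbol for each replicate and the mean with SD (n = 3) beside it. The groups overlap on the left, and on the right the cKO libraries sit between 3.43 and 3.57, above the WT libraries at 1.77 to 2.71.

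Of 16 other genes of the family, 15 were tested. None passed an adjusted p of 0.05 in limma, and their median log2 fold change was -0.03. At an unadjusted p under 0.05, 3 were lower in cKO, against 6.45% of all genes tested, and 1 was higher, against 11.9%. The 3 lower genes were the A1 paralogs, anti-apoptotic genes of blood cells that are nearly identical in sequence, so that the split of reads between them is uncertain. *Bcl2a1b* was at 84.4, 24.8 and 64.3 TPM in WT and at 23.9, 18.4 and 10.7 TPM in cKO, with a log2 fold change of -1.55 (adjusted p = 0.183, limma). The log2 fold changes of *Bcl2a1a* and *Bcl2a1d* were -1.46 and -2.07, with adjusted p of 0.125 and 0.142 in limma. *Bok*, an effector-like member, was at 1.36, 0.621 and 1.55 TPM in WT and at 5.41, 6.14 and 1.65 TPM in cKO, where replicate 3 lay near the WT libraries (log2 fold change 1.21, adjusted p = 0.223, limma). With the replicate number as a block, 2 of these genes were higher at an unadjusted p under 0.05, *Bok* and *Bcl2l13*. *Bnip3*, a mitophagy receptor with a BH3-like motif, was the most abundant gene of the list, at 469, 716 and 512 TPM in WT and at 1054, 890 and 643 TPM in cKO (log2 fold change 0.60, adjusted p = 0.302, limma). *Bcl2l2* (BCL-W) and *Bad* showed log2 fold changes of 0.01 and -0.03.

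Downstream, 24 of 25 genes for mitochondrial partners, caspases and their inhibitors were tested, with a median log2 fold change of 0.07. None passed an adjusted p of 0.05 in limma, and at an unadjusted p under 0.05 1 gene was lower and 3 were higher, shares near the 6.45% and 11.9% of all genes tested, so the counts say nothing particular about this list. The lower one was *Casp8*, the protease that cleaves BID, at 69.2, 56.4 and 82.0 TPM in WT and 23.1, 14.6 and 31.8 TPM in cKO (log2 fold change -1.59, adjusted p = 0.124, limma). Its groups lay far apart. With replicate as a block *Birc3*, an inhibitor of apoptosis, was also lower at an unadjusted p under 0.05 (0.00133, adjusted p = 0.0748, limma). The higher genes were *Vdac1*, a channel of the outer mitochondrial membrane (log2 fold change 0.96), *Xiap*, a caspase inhibitor (0.88), and *Dnm1l*, the fission GTPase DRP1 (0.56). Cytochrome c (*Cycs*) had a log2 fold change of 0.66, *Apaf1*, which forms the apoptosome with it, had one of -0.26, and the initiator *Casp9* had one of -0.11. *Vdac2* and *Mtch2*, known as mitochondrial receptors of BAK and BID, had log2 fold changes of 0.67 and 0.41.

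Upstream, 24 of 26 genes known to induce or degrade BCL2 family members were tested, with a median log2 fold change of -0.02. None passed an adjusted p of 0.05 in limma, and at an unadjusted p under 0.05 0 were lower, against 6.45% of all genes tested, and 3 were higher, a share near the 11.9% of all genes. The 3 were the kinase genes *Map3k13* (log2 fold change 0.83), *Mapk8* (0.56) and *Mapk10* (1.13, unadjusted p = 0.0498). With replicate as a block *Mapk10* had an unadjusted p of 0.0777 and *Map3k12* (log2 fold change 0.69) one of 0.0295, and *Mapk9* had a log2 fold change of 0.24 (unadjusted p = 0.629 without the block, limma). *Jun*, the transcription factor that JNK kinases activate, was at 791, 1230 and 1504 TPM in WT and at 397, 359 and 1172 TPM in cKO, where replicate 3 lay among the WT libraries (log2 fold change -1.04, adjusted p = 0.310, limma). With replicate as a block 3 genes were lower at an unadjusted p under 0.05, *Jun* (0.0193, adjusted p = 0.156, limma), *Atf3* (0.0386) and *Rela* (0.0387). *Trp53*, which encodes the activator of *Bbc3* and *Pmaip1*, was at 63.9, 44.4 and 62.0 TPM in WT and at 42.9, 40.0 and 41.1 TPM in cKO, without overlap (log2 fold change -0.43, adjusted p = 0.348, limma). *Foxo3* and *Ddit3*, inducers of *Bcl2l11*, had log2 fold changes of -0.14 and -0.34.

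Markers of leukocytes, cones and rods moved with the groups in the same libraries. At an unadjusted p under 0.05 in limma, 7 of 8 T cell genes, 3 of 4 B cell genes, 3 of 6 myeloid genes and 3 of 3 general leukocyte genes were lower in cKO, and 5 of 5 cone genes and 7 of 7 rod genes were higher, none of them at an adjusted p under 0.05. Of the other lists, 2 of 5 amacrine and 1 of 6 bipolar genes were higher, and 2 of 6 Mueller glia and astrocyte genes and 1 of 3 tested endothelial genes were lower. Over all genes tested, 11.9% were higher and 6.45% were lower by the same rule, so the bipolar count is near that share. Summed TPM of the leukocyte genes was 1512, 562 and 1503 in WT and 231 to 443 in cKO, and that of the T cell genes was 623 to 1751 in WT and 151 to 372 in cKO. No T cell gene was at 0 in any library, and *Cd3e* was at 83.1, 56.7 and 72.2 TPM in WT and at 16.5, 12.4 and 9.13 TPM in cKO. The sum of the cone genes was 1760 to 2391 in WT and 3169 to 5856 in cKO, and that of the 7 rod genes was 4291 to 6551 in WT and 9909 to 18073 in cKO. The 12 RGC genes summed to 144 to 205 TPM in WT and 227 to 253 TPM in cKO, a sum led by *Thy1* and *Isl1*. Of the 9 RGC genes tested, 6 had positive and 3 had negative log2 fold changes. At an unadjusted p under 0.05 in limma, 2 were higher in cKO, *Tubb3* (log2 fold change 1.01) and *Thy1* (0.71), and 0 were lower. The RGC-specific *Rbpms* and *Pou4f1* had log2 fold changes of -0.41 and -0.64 (unadjusted p = 0.364 and 0.332, limma). WT replicate 2, the WT library with the least leukocyte RNA, was also the lowest WT library for *Pmaip1*, *Bid*, *Bcl2*, *Mcl1*, *Bcl2l11* and *Bcl2a1b*, and the highest for *Bax*, *Bak1* and *Bbc3*. The part of these markers in the differences of the BCL2 family genes was not tested.

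**Figure D4:**
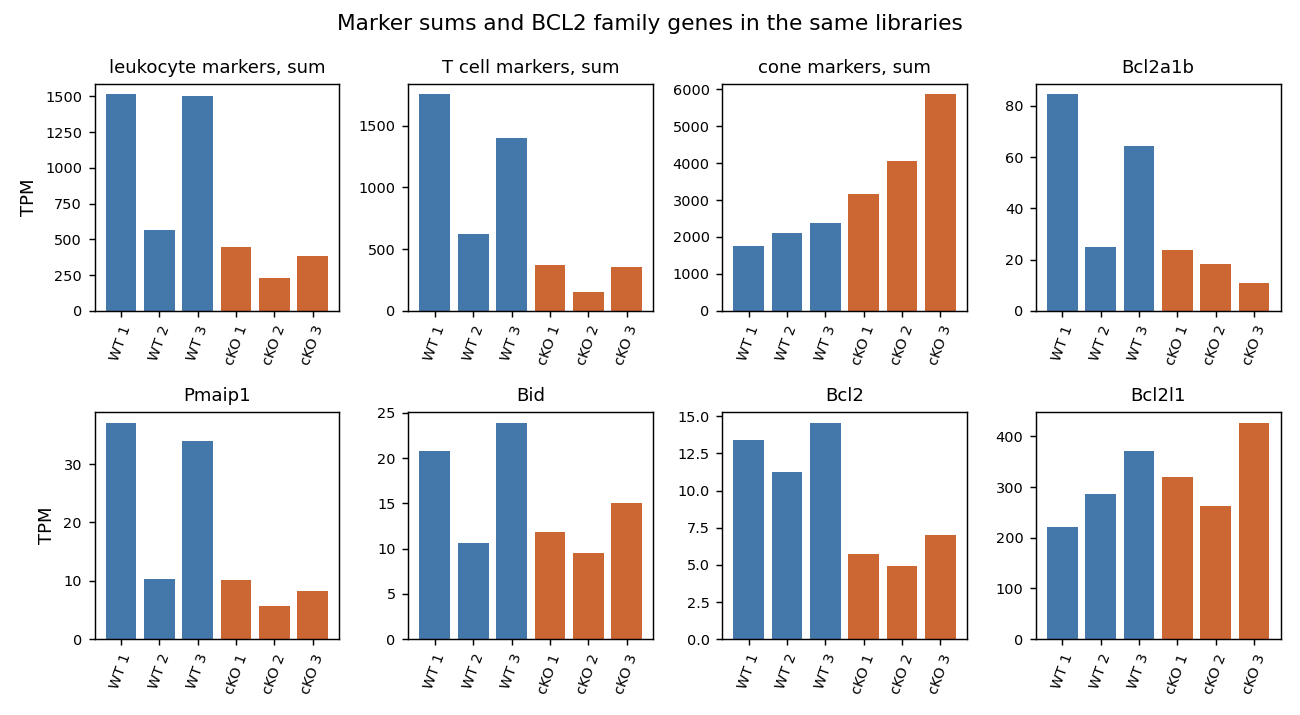
TPM in each RNA-seq library (bars, WT in blue and cKO in orange) of summed leukocyte, T cell and cone markers and of *Bcl2a1b*, *Pmaip1*, *Bid*, *Bcl2* and *Bcl2l1*. WT replicates 1 and 3 are the highest libraries for leukocyte markers (1512 and 1503 TPM), *Pmaip1* (37.1 and 33.9 TPM), *Bid* (20.7 and 23.9 TPM) and *Bcl2* (13.4 and 14.6 TPM). Of these, all but *Bid* are higher in every WT library than in every cKO library.

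ATAC-seq measures how open chromatin is, and the question was whether the ends of these genes, promoters included, differed in accessibility between the groups. The table gives the authors' log2 of mean normalized reads for each group and no value per library, so there is no spread and no test. All 6 regions within 1000 bp of a member's end were at least 2-fold lower in cKO, against 89% of the 8002 such regions at the ends of all genes and 59.8% of all 16600 regions. A region at an end was found for 6 of 10 members, and for 37.2% of all protein-coding genes. The median log2 difference was -2.69 for the member regions, -2.5 for all gene-end regions and -1.57 for all regions. The members' differences thus lay close to those of gene ends in general. Their median log2 levels were lower, at 4.075 in WT and 1.68 in cKO, against 4.97 and 2.62 for all gene-end regions. When the median difference over all regions was subtracted, 4 of the 6 members were at least 2-fold lower. The share of all gene-end regions by that rule was not computed, so this count cannot be set against a background. At least 4-fold lower values were found for 5 of the 6, against 67.6% of all gene-end regions.

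The largest difference was at the start of *Bcl2l11* (chr2:128125680-128126687), which covers the printed promoter, with authors' mean normalized reads of 66.3 in WT and 4.41 in cKO, a log2 difference of -3.91. At *Bax* (chr7:45466576-45466953), where the region spans the start and 105 bases of the promoter window, the log2 values were 3.31 and 0.22. The cKO value of *Bax* corresponds to 1.16 normalized reads, the lowest of the member regions. At *Bcl2* (chr1:106713830-106714240) the region lay inside the gene, 50 bp from its start, with log2 values of 3.76 and 1.05. At *Bid* (chr6:120916583-120917013) they were 3.89 and 1.22. At *Bbc3* (chr7:16309322-16310325), 924 bp from the gene's end and just inside the distance rule, they were 5.32 and 3.18, and this region holds RefSeq starts of the gene. *Pmaip1* (chr18:66458382-66459122) had the smallest difference, from 4.26 to 3.25, close to the 2-fold limit.

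Peak lists of the single libraries showed the same split for 5 of the 6 regions, which overlapped a peak in both WT libraries and in neither cKO library, as did 81.6% of all gene-end regions. Of all regions with this peak pattern, 95.6% were at least 2-fold lower in cKO, and so were these 5. The *Pmaip1* region overlapped a peak in WT replicate 1 and cKO replicate 1 only. A peak at an end was found for 6 and 6 of the 10 members in WT replicates 1 and 2, and for 2 and 1 in cKO replicates 1 and 2, beside 49.3%, 42.8%, 12.4% and 12.8% of all protein-coding genes. The members with such a cKO peak were *Bbc3* and *Pmaip1* in replicate 1 and *Bid* in replicate 2. Those of *Bbc3* and *Bid* did not overlap the regions given above. *Bak1* had a peak at an end in WT replicate 2 only. The cKO libraries thus had fewer peaks at gene ends in general, and the part of library quality in the members' values was not tested.

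Just outside the distance rule, 3 further regions overlapped RefSeq promoter windows of members. A second *Bcl2l11* region (chr2:128127148-128127980) at 1110 bp had log2 values of 5.39 and 3.12, and a *Mcl1* region (chr3:95658280-95659509) at 1336 bp had values of 5.35 and 3.22. At *Bcl2l1* (chr2:152830700-152831778), 2025 bp from the gene's end, the values were 6.07 and 2.90, a difference of -3.17, beside the RNA log2 fold change of 0.20 given above. All 3 overlapped a peak in both WT libraries and in neither cKO library. For *Bak1* and *Hrk* no region was listed near an end. A region of the opposite sign lay within *Bcl2*, 55117 bp from the nearer end (chr1:106658480-106659173), with log2 values of 2.13 in WT and 3.38 in cKO and overlapped a peak in each cKO library but in no WT library. Regions at least 2-fold higher in cKO made up 8.73% of all regions.

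**Figure D5:**
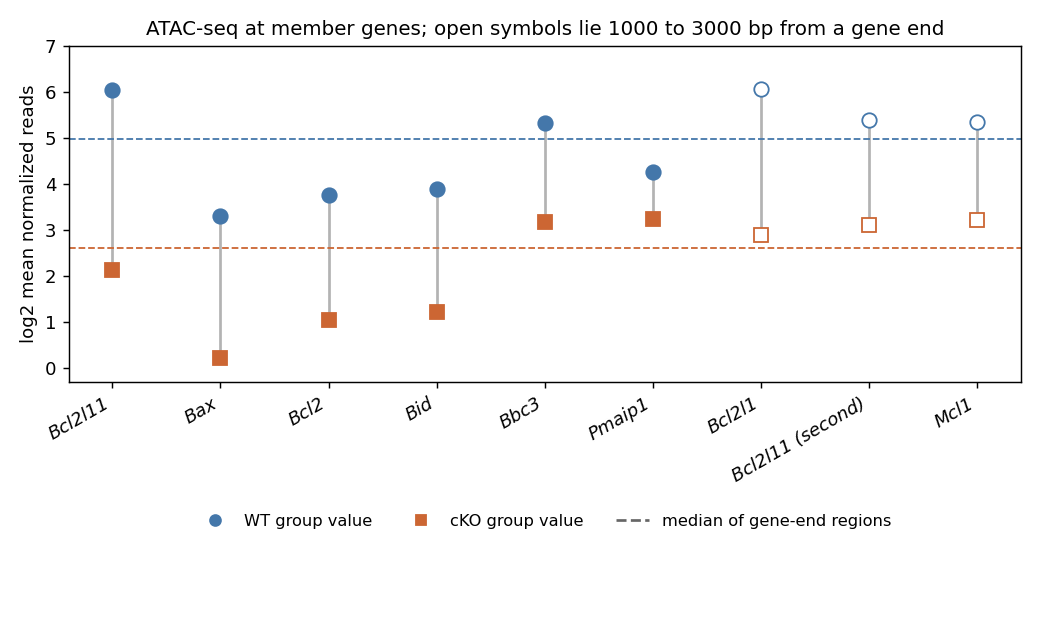
The authors' log2 mean normalized reads in WT (blue circles) and cKO (orange squares) for the regions at member genes, with filled symbols within 1000 bp and open symbols 1000 to 3000 bp from a gene end, and dashed lines at the medians of all gene-end regions (4.97 in WT and 2.62 in cKO). Each of the 9 regions drawn is lower in cKO, with log2 differences from -1.01 at *Pmaip1* to -3.91 at *Bcl2l11*, and the region deep within *Bcl2* that is higher in cKO is not drawn.

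Genes whose log2(TPM + 1) ran most like that of a member over the 6 libraries differed between members. *Bcl2* was most like *Tmem140* (Pearson r = 0.997) and *Cd37*, a leukocyte tetraspanin (r = 0.995), and *Pmaip1* was most like *Trpv2* and *St8sia4* (r = 0.999 each). *Bid* was most like *Iqgap1* and *Birc5* (r = 0.995 each), *Bcl2l1* like *Cbfa2t2* (r = 0.997) and *Gm16141* (r = 0.995), and *Bax* like *Gm10923* (r = 0.995) and *Ap3s1* (r = 0.994). For *Bak1* the closest genes were *Slc25a1* (r = 0.995) and *AW047730* (r = 0.993), for *Bbc3* *Mta3* (r = 0.991) and *Klf2* (r = 0.985), for *Bcl2l11* *Serping1* (r = 0.994) and *Itpr2* (r = 0.981), and for *Mcl1* *Pgls* (r = 0.986) and *Apbb1ip* (r = 0.983). These are descriptions over 6 points that share libraries and scaling: the best match of a gene had a median r of 0.996 over all genes tested, so values of this size were common.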

How the data were processed

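The authors trimmed RNA-seq reads with Trimmomatic, quantified them with Salmon 1.0.0 on GRCm38 with GENCODE annotation, collapsed transcripts to genes by tximport and deposited the TPM of each library, which sum to 995278 to 999315. Sequencing depth is unknown. ATAC-seq reads were aligned with Bowtie2 2.3.5.1, and the processing notes name MACS2 2.2.5. The deposited ATAC-seq table, made by the authors with DiffBind, gives log2 mean normalized reads per group, and peak lists give positions per library. Columns of the authors' own fold changes, p-values and FDR (RNA-seq with DESeq2 1.26.0) were not used. Groups came from the sample labels.

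Genes that reached 1 TPM in 3 or more of the 6 libraries were compared as log2(TPM + 1) with limma 3.58.1 in R 4.3.3 (trended empirical Bayes), and p-values were adjusted by Benjamini-Hochberg over all 17555 genes and a threshold of 0.05. The limma p-values set the difference between groups against the spread between these pooled samples, which the empirical Bayes step moderates over genes. The fit was tested on simulated data. Same-numbered libraries deviated together (Pearson r across genes 0.334, 0.101 and 0.425, beside 0.193 for WT replicate 1 with cKO replicate 2 and values under 0 for the other pairs). The labels do not state that the numbers pair the libraries. The main fit therefore had no block, and its intervals and p-values ignore any pairing. A fit with the replicate number as a block was run as an alternative. Regions were taken within 1000 bp of either end of a gene in RefSeq GRCm38.p6. Positions count from 1. Promoter sequences are from RefSeq. Python 3.11.15 with numpy 2.4.6, pandas 2.3.3, scipy 1.17.1 and matplotlib 3.10.9 was used. All members were named, and of the other lists the whole family, the genes at an unadjusted p under 0.05, genes with a direct role beside a member, and the defining markers, of which 1 is not reported here. The 2 genes most like each member were named by Pearson r. The members and lists were chosen with earlier results of these data known.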

Additional observations from a re-analysis of the deposited data

How the results depend on the processing

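All 107 log2 fold changes of tested members under the alternatives kept their direction, and none passed an adjusted p of 0.05 (limma). The number of members lower at an unadjusted p under 0.05 was 4, against 2 with no filter on low values and 1 to 3 when 1 library was left out, where the fit rests on 2 against 3 libraries. It was 2 without WT replicate 1 or 3 or cKO replicate 1 or 3, 3 without WT replicate 2 and 1, *Bcl2*, without cKO replicate 2. With the replicate block it was 4 again, after scaling by the median of ratios it was 5, and at a mean TPM of at least 5 it was 3. Of all genes tested, 6.45% were lower by this rule in the main fit, 4.06% with no filter and 8.52% with the block. The share was 9.55% after the scaling and 6.84% at a mean TPM of at least 5. It ran from 3.97% (without cKO replicate 2) to 7.9% (without WT replicate 2) when 1 library was left out. For genes higher, the share is given for the main fit alone, 11.9%. The number of other family genes higher was 1, against 0 at a mean TPM of at least 5, 2 with the replicate block, and 0 to 2 when a library was left out. By adjusted p, no member, other family gene, mitochondrial partner or inducer was called with or without the block, so there was no such call to change. For the inducers, 0 were lower, against 3 with the replicate block, 2 after scaling by the median of ratios and up to 3 without cKO replicate 3, and 3 were higher, against 0 without cKO replicate 1. For the mitochondrial partners, 1 was lower, against 2 with the block or the scaling and 3 without WT replicate 2, and 3 were higher, against 5 with no filter and 0 without cKO replicate 2. The log2 ratio of anti-apoptotic to BH3-only RNA differed by 1.18, or 0.395 from geometric means. The number of members with a region at least 2-fold lower was 6, against 8 within 3000 bp, 5 at 4-fold and 6 by overlap with a RefSeq promoter window, the last chosen after seeing the data. The promoter-window count rests on a different set, with *Bcl2l1* and *Mcl1* in place of *Bcl2* and *Pmaip1*. No share over all genes was computed for the 3000 bp and promoter-window counts. For ATAC-seq no paired fit could be made, since its table gives group values alone. The causes of these shifts were not tested. TPM keeps no depth, which limits *Hrk* and *Bbc3* in particular.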
